A study of Mus musculus with 48 samples.

Results

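The 10 genes described here are the nuclear receptor genes Nr1i2, which encodes the pregnane X receptor (PXR), and Nr1i3, which encodes the constitutive androstane receptor (CAR), their dimer partner Rxra, and 7 Cyp3a genes (Cyp3a11, Cyp3a13, Cyp3a16, Cyp3a25, Cyp3a41a, Cyp3a44 and Cyp3a59). They were taken by symbol, with no rule on their levels but with earlier results of these data known, from the 46517 genes counted in the series. The study placed liver spheroids in the front chamber of the eye, where they engraft on the iris, and asked how far the engrafted hepatocytes kept the transcriptome of liver. RNA was sequenced from 16 samples, each as 3 technical libraries that are summed here. All samples carry the labels WT Albino and C57BL/6N, and the labels give no sex or age.

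The 5 explants, numbered 1, 2, 4, 5 and 6, were spheroids recovered 2 months after transplantation together with the iris on which they had grown, so an explant is a mixture of graft and host tissue. The 3 irises came from eyes without a graft. The 3 livers were whole tissue of donor mice. The 3 hepatocyte preparations were hepatocyte-enriched fractions obtained by collagenase perfusion and a Percoll gradient. The 2 spheroid samples had been aggregated from such cells and kept in vitro in medium with dexamethasone and insulin, transferrin and selenium. Each explant had 5449589 to 6789648 counts in total, each iris 4596550 to 4881817 and each liver 3523171 to 3871404. Hepatocyte preparations had 2718518 to 3573075 counts, and the spheroids 3447643 and 3247327. The labels do not say how the samples of a group relate to animals, so p-values measure the spread between these samples.

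PXR is a receptor for steroids, bile acids and many drugs, and CAR is a related receptor that also enters the nucleus by indirect activation. Each binds DNA as a heterodimer with a retinoid X receptor and raises transcription of drug-metabolising enzymes and transporters in liver, with Cyp3a genes as classical targets of PXR and Cyp2b genes as classical targets of CAR. Glucocorticoids such as dexamethasone raise receptor levels through the glucocorticoid receptor and, at high dose, activate rodent PXR. CYP3A enzymes are monooxygenases of the endoplasmic reticulum that oxidise drugs, steroids and bile acids, with electrons supplied by cytochrome P450 reductase. In adult mice Cyp3a11, Cyp3a13 and Cyp3a25 are found in the livers of both sexes, whereas Cyp3a41 and Cyp3a44 are female-biased and Cyp3a16 is mainly fetal and neonatal.

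The coding starts of the Cyp3a genes are shown because near-identical copies decide which of these genes can be counted at all. The first 90 coding bases are given from the ATG, as in the GENCODE M21 transcripts, and capitals mark the bases that differ from Cyp3a41a.
Cyp3a41a: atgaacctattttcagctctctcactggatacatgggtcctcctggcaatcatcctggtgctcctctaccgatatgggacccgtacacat
Cyp3a44: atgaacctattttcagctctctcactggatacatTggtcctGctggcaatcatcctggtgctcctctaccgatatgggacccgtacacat
Cyp3a16: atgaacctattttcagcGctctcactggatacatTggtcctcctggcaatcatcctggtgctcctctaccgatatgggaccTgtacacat
Cyp3a11: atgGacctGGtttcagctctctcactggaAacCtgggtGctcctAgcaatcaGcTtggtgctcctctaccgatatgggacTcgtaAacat
Cyp3a25: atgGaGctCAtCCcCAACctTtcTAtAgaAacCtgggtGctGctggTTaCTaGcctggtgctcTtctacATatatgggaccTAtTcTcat
Cyp3a59: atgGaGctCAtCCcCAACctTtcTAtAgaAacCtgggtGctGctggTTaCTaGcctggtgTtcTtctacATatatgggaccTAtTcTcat
Cyp3a13: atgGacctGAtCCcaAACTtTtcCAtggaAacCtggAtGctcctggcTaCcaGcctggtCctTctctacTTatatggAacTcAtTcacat
Cyp3a41b, a copy of Cyp3a41a that is not among the 10 genes, differs from it at 0 of these bases, Cyp3a44 at 2, Cyp3a16 at 3 and Cyp3a11 at 11, whereas Cyp3a13, Cyp3a25 and Cyp3a59 differ at 27, 30 and 31. Over the whole coding sequence Cyp3a41a and Cyp3a41b were 99.87% identical, Cyp3a25 and Cyp3a59 97.48%, and Cyp3a11 and Cyp3a41a 95.17%. Cyp3a13 had no close copy among the Cyp3a members, at 74.54% to 76.47% to each of the others.

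The authors discarded reads that mapped to more than 1 place. Of the windows of 50 bases along the longest coding transcript, 98.61% of those of Cyp3a41a occurred in another transcript (93.68% in Cyp3a41b), which leaves 28 windows of its own. The shared part was 27.98% for Cyp3a59, 26.81% for Cyp3a25, 26.45% for Cyp3a44, 14.77% for Cyp3a11 and 10.71% for Cyp3a16, and 0% for Cyp3a13, Nr1i2 and Rxra. With windows of 100 bases the shared part was 90.82% for Cyp3a41a, 6.05% for Cyp3a25, 5.61% for Cyp3a59 and 5.37% for Cyp3a44. A count of 0 for Cyp3a41a therefore says little about its transcription. The levels of Cyp3a25 and Cyp3a59 lack the reads that fit both genes, a loss whose size depends on the length of the reads.

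The promoters are shown because PXR and CAR dimers bind paired half-sites. The RefSeq promoter sequences (GRCm38.p6, 250 bases before to 50 after the start) were searched on both strands for the half-sites AGGTCA and AGTTCA, whose reverse complements are TGACCT and TGAACT. The stretch from -190 to -111 is printed in the direction of transcription, and capitals mark the half-sites.
Cyp3a11, chr5:145879965-145880044, minus strand: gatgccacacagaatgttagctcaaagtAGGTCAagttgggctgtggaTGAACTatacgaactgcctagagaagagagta
Cyp3a25, chr5:146009729-146009808, minus strand: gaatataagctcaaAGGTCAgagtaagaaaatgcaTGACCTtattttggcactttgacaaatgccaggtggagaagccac
Cyp3a59, chr5:146079068-146079147, plus strand: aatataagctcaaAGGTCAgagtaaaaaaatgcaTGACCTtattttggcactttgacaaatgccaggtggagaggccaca
Cyp3a44, chr5:145805985-145806064, minus strand: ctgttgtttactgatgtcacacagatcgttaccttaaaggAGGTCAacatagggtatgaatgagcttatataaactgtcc
Cyp3a41a, chr5:145720247-145720326, minus strand: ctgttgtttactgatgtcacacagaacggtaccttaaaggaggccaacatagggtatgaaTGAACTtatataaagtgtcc
Cyp3a11 held AGGTCA at -162 and TGAACT at -142, with 14 bases between them. Cyp3a25 (-176 and -155) and Cyp3a59 (-177 and -156) held AGGTCA and TGACCT with 15 bases between them. Cyp3a44 and Cyp3a41a held a single half-site each, at -150 and -130. The promoter windows of Cyp3a13, Cyp3a16, Nr1i2 and Nr1i3 held none of these letters, and of the 2 Rxra promoters 1 held a pair with 33 bases between. Of 32851 promoters of the same length 27.71% held a half-site, and 10 (0.03044%) held a facing pair 14 or 15 bases apart. That spacing is the one seen in the promoters of Cyp3a11, Cyp3a25 and Cyp3a59, which are among those 10. Cyp3a25 is among them with 2 overlapping windows that hold the same pair. Cyp3a57, a Cyp3a gene outside the members with 21 counts in all 16 samples, also held AGGTCA and TGACCT with 15 bases between them. The pair is thus not particular to the Cyp3a genes with high counts. No member's promoter held 2 half-sites in the same direction 3 or 4 bases apart, or 2 facing away from each other 6 bases apart. These arrangements occurred, in the same order, in 4, 9 and 3 of all promoters. These matches describe the letters of the window only.

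An iris contribution was first subtracted from the TPM of the explants, as (explant TPM - iris mean × f) / (1 - f), where f is the iris fraction. The fractions solved from the authors' tables were 82%, 68%, 81%, 72% and 59% for explants 1, 2, 4, 5 and 6, so the graft value is the smaller part of most explant libraries and is magnified by the division. The deposited column of explant 4 does not follow this formula, and the formula was applied to all 5 explants alike. Values after this step are called corrected TPM. A gene was called where the Benjamini-Hochberg adjusted p over all genes tested was under 0.05 and the log2 difference exceeded 1 in either direction. Counts were tested with edgeR and corrected values with limma on log2(TPM + 1).

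Against iris, 5 of the 7 members tested were higher in explants before correction (edgeR, Benjamini-Hochberg), where 6.16% of 16764 genes were called higher, 0.316% lower and 6.47% in either direction. Between hepatocyte preparations and livers 0 of 7 were called by edgeR, where 0.409% of 12236 genes were called higher, 2.31% lower and 2.72% in either direction. There, 1 of 7 had an unadjusted p under 0.05, DESeq2 called 1 (Cyp3a59) and limma-voom 0. Between spheroids and hepatocyte preparations 3 of 7 were called against 17.2% of 12247 genes. Cyp3a59 was higher, as 8.13% of genes were, and Nr1i3 and Rxra were lower, as 9.11% were. Between spheroids and livers 2 of 7 were called, Nr1i3 and Rxra, both lower, against 19.2% of 12959 genes (8.24% higher and 11% lower).

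For corrected explants 2 of 9 members tested were called lower than in livers, Rxra and Cyp3a13, where 3.01% of 21002 genes were called lower, 11.8% higher and 14.8% in either direction. Against hepatocyte preparations Nr1i3 and Rxra were called lower of 9 tested, where 3.28% of 20726 genes were lower, 15.7% higher and 19% in either direction. Against spheroids Cyp3a13 alone of 8 was called, lower, where 0.957% of 21217 genes were lower, 5% higher and 5.95% in either direction. With the corrected values as deposited all 5 of these calls were lost, at adjusted p from 0.064 to 0.14. With iris fractions by non-negative least squares both Cyp3a13 calls (-0.88, limma adjusted p = 0.044, under the fold limit, and -1.04, 0.078) and the Nr1i3 call (-1.01, 0.056) were lost. These comparisons share samples and are not independent of each other.

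The corrected values have a scale of their own. The median of all genes tested lay 0.61 above livers, 0.75 above hepatocyte preparations and 0.54 above spheroids on the log2 scale, while the median of 318 hepatocyte genes (at least 20 TPM in livers and hepatocyte preparations, iris mean under 2% of liver, members left out) lay -0.73, -0.85 and 0.09 from them. In bulk samples fewer hepatocytes and less RNA per hepatocyte cannot be told apart. The summed level of 12 hepatocyte markers was 21661 to 30824 TPM in corrected explants, 16911 to 18202 in livers, 17350 to 21239 in hepatocyte preparations, 17859 to 18935 in spheroids and 1892 to 2276 in irises. The 10 macrophage markers summed to 2415 to 6084 TPM in corrected explants and 514 to 1143 in livers. Of these, 9 of the 10 were called higher, where 11.8% of all genes were. The 5 Kupffer cell markers summed to 14.7 to 156 TPM in corrected explants and 204 to 371 in livers. Of the 5, 0 were called higher and 1 lower, where 3.01% of all genes were lower. The 10 iris and lens markers summed to 237 to 2816 TPM in corrected explants, 311 to 321 in livers and 5590 to 6219 in irises, with Cryaa, Cryba2 and Crygs at 0 in every corrected explant. The part of these other cells in the members' values was not tested.

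**Figure D1:**
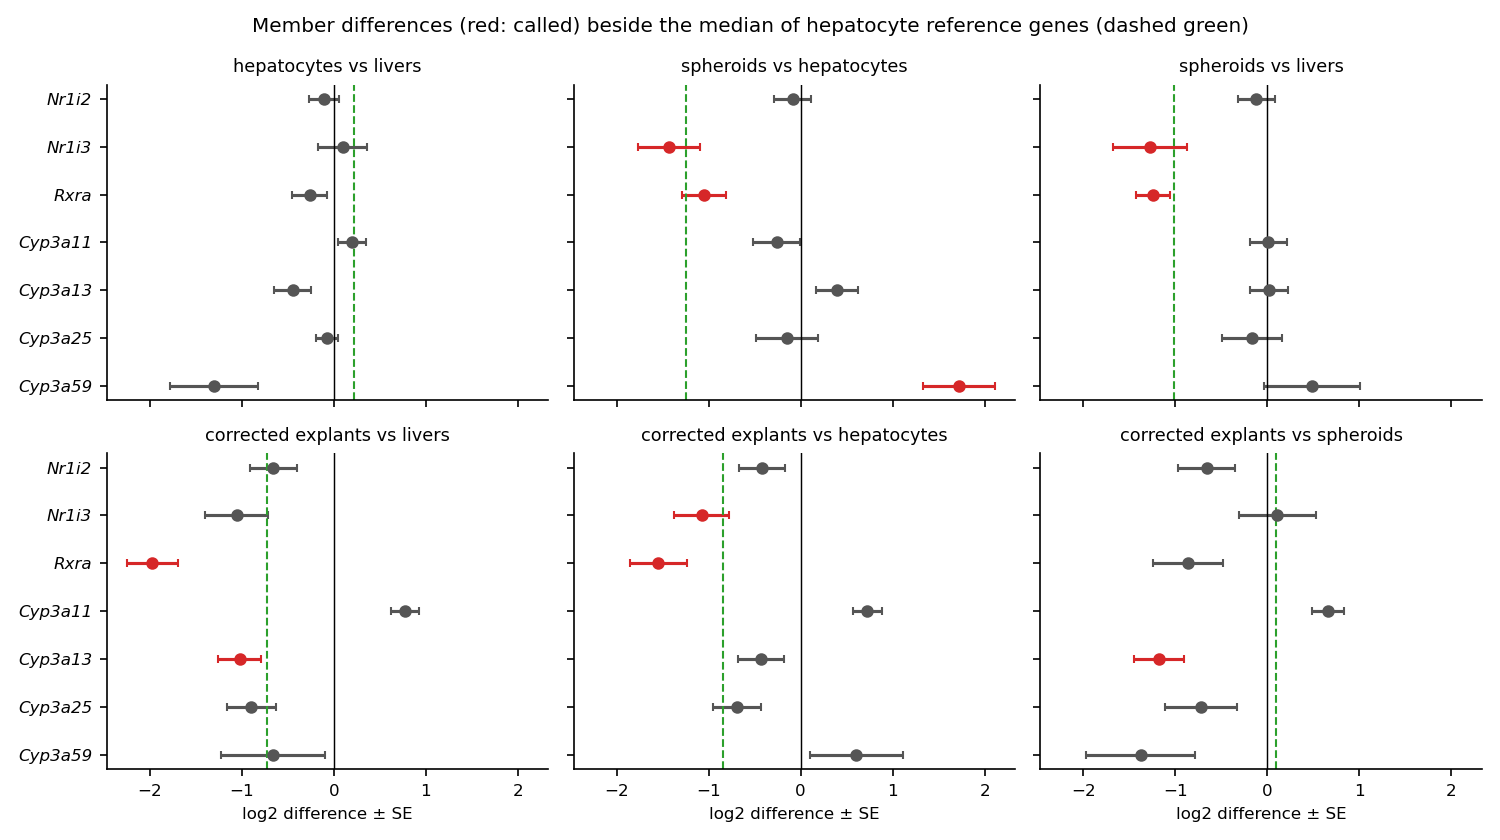
Each panel is a comparison, with the log2 difference ± SE of each member on the x axis, called members in red, and a dashed green line at the median of the 318 hepatocyte genes. In the 3 comparisons of corrected explants Cyp3a11 lies to the right of this line and Rxra to its left.

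Nr1i2 (ENSMUSG00000022809, GRCm38 chr16:38248323-38294824, minus strand), the PXR gene, overlapped in level between liver, isolated hepatocytes and culture. Its TPM was 142, 97.3 and 121 in the livers, 121, 99.9 and 83.8 in the hepatocyte preparations and 110 and 129 in the spheroids. Corrected explants held 55.9, 88.6, 71.5, 73.1 and 91.0 TPM, all below the livers and overlapping the hepatocyte preparations, and irises held 3.53, 2.77 and 2.14.

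Explants were 3.21 ± 0.49 (SE) higher than irises for Nr1i2 on the log2 scale (edgeR adjusted p = 0.0035). The median over the hepatocyte genes tested was 4.25, but these genes were chosen for an iris mean under 2% of liver. Nr1i2, at 2.34%, would not pass that limit, so the 2 values cannot be compared. The mean corrected level was 76.0 ± 14.3 TPM (SD, n = 5) against 120 ± 22.4 (n = 3) in livers. That log2 difference of -0.66 ± 0.25 was not called (limma adjusted p = 0.11) and was close to the -0.73 of the hepatocyte genes. Spheroids differed from hepatocyte preparations by -0.08 and from livers by -0.12, where the hepatocyte genes had medians of -1.25 and -1.01.

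Nr1i3 (ENSMUSG00000005677, chr1:171213970-171220701, plus strand), the CAR gene, was lower in spheroids than in hepatocyte preparations and livers. The spheroids held 54.8 and 102 TPM, the hepatocyte preparations 164, 208 and 146, and the livers 113, 178 and 240. Both spheroid values lay below every hepatocyte preparation and every liver. The difference was -1.43 ± 0.33 from hepatocyte preparations (edgeR adjusted p = 0.019) and -1.28 ± 0.40 from livers (adjusted p = 0.045).

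Both Nr1i3 calls leaned on single samples. Without spheroid sample 1 the difference from hepatocyte preparations was -0.97 (adjusted p = 0.043, under the fold limit). The call against livers was lost without spheroid sample 1 (-0.84, adjusted p = 0.20), liver 2 (-1.27, 0.11) or liver 3 (-0.999, 0.11). Corrected explants held 62.8, 55.1, 122, 93.4 and 86.4 TPM of Nr1i3, and 4 of the 5 lay below every liver. They were -1.07 ± 0.30 from hepatocyte preparations (limma adjusted p = 0.034), where the 2 groups did not overlap, and -1.06 ± 0.34 from livers (adjusted p = 0.069). The call against hepatocyte preparations was lost without explant 1 (-0.98, adjusted p = 0.053), explant 2 (-0.94, 0.049), or hepatocyte preparation 1 (-1.10, 0.11), 2 (-0.93, 0.15) or 3 (-1.19, 0.083), and the difference from livers was called without explant 4 (-1.21, 0.038). Scaled to the hepatocyte genes the difference from hepatocyte preparations was -0.25 (adjusted p = 0.58).

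Nr1i3 shares 3304 of its 4414 exon bases (74.85%) with Tomm40l, a gene of a mitochondrial import channel on the opposite strand (chr1:171216011-171222514). The counting used no strand, and a read in the shared part was given to both genes, so the 2 counts cannot be told apart there. Irises held 38.5, 45.1 and 45.2 TPM of Nr1i3 and 47.3, 54.6 and 55.9 TPM of Tomm40l, and the Nr1i3 value was the lower of the pair in every iris. In livers Nr1i3 (113, 178 and 240) exceeded Tomm40l (74.2, 115 and 151), and in hepatocyte preparations it exceeded Tomm40l (106, 124 and 85.8) too. In spheroid sample 1 it did not (54.8 against 61.6). The iris level of Nr1i3 was 24.3% of its liver level, against 2.34% for Nr1i2, and explants before correction differed from irises by 0.43 ± 0.13 (edgeR adjusted p = 0.066).

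**Figure D2:**
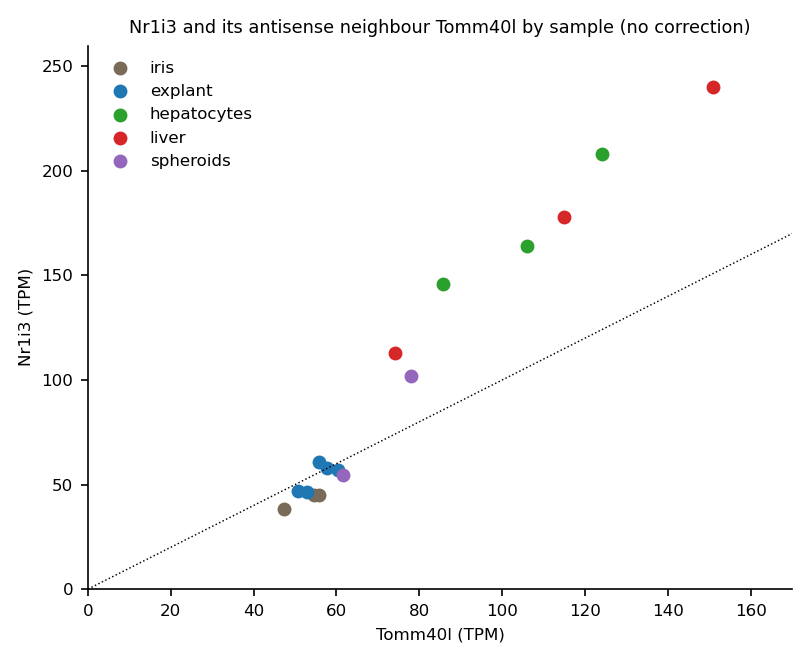
TPM of Nr1i3 on the y axis against TPM of its antisense neighbour Tomm40l on the x axis for each sample, without correction, with a dotted line where they are equal. The 3 irises lie below the line, and all 3 livers and all 3 hepatocyte preparations lie above it.

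Rxra (ENSMUSG00000015846, chr2:27676440-27762957, plus strand), the partner of both receptors and of many others, was lower in spheroids than in livers and hepatocyte preparations. Its TPM was 169, 127 and 147 in livers, 115, 141 and 79.5 in hepatocyte preparations and 68.1 and 66.9 in spheroids. The spheroids lay below every liver and every hepatocyte preparation. The difference was -1.25 ± 0.18 from livers (edgeR adjusted p = 0.0031) and -1.05 ± 0.24 from hepatocyte preparations (adjusted p = 0.018). The latter call was lost without hepatocyte preparation 2 (-0.83, adjusted p = 0.038) and without spheroid sample 1 (-0.95, 0.092) or 2 (-1.16, 0.052), and with library size as the only scaling (-0.80, 0.039).

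Irises held 29.4, 31.3 and 28.2 TPM of Rxra and explants before correction 31.8, 37.1, 29.8, 30 and 30.4, and the 2 groups overlapped. The corrected values of 41.6, 52.9, 30.7, 31.1 and 31.4 TPM are thus remainders of nearly equal numbers. All lay below every liver, and the difference was -1.97 ± 0.28 (limma adjusted p = 0.0028), further down than the hepatocyte genes. From hepatocyte preparations it was -1.55 ± 0.31 (adjusted p = 0.0077), and this call was lost without hepatocyte preparation 2 (-1.36, 0.056) and with scaling to the hepatocyte genes (-0.73, 0.17). From spheroids it was -0.86 (adjusted p = 0.27).

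Cyp3a11 (ENSMUSG00000056035, chr5:145854426-145879964, minus strand), the main CYP3A enzyme of mouse liver, was the most abundant member in every sample type that held hepatocytes. It had 612, 478 and 499 TPM in livers, 477, 665 and 513 in hepatocyte preparations and 525 and 623 in spheroids, and these 3 groups overlapped. Spheroids differed from livers by 0.01 and from hepatocyte preparations by -0.26, and neither was called. Corrected explants held 1070, 984, 846, 833 and 808 TPM, all above every sample of the other groups. The gene's exons add up to 5093 bases in the authors' annotation against 2344 in its longest coding transcript, so its TPM is understated relative to the other genes.

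Cyp3a11 averaged 908 ± 113 corrected TPM (SD, n = 5) against 529 ± 72.2 in livers and 552 ± 100 in hepatocyte preparations (n = 3 each). The log2 difference was 0.78 ± 0.15 from livers (limma adjusted p = 0.010), 0.72 ± 0.16 from hepatocyte preparations (0.013) and 0.66 ± 0.17 from spheroids (0.069). None was called, as all lay under the fold limit. The difference from livers was larger than that of 98.4% of the hepatocyte genes. Scaled so that the hepatocyte genes agree between groups, it was 1.52 from livers (adjusted p = 0.0029) and 1.56 from hepatocyte preparations (0.0014), and was then called in both. Both this scaling and the 98.4% rest on genes with an iris mean under 2% of liver, a limit that Cyp3a11, at 4.10%, would not pass.

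The sign of this Cyp3a11 difference turned with the correction. Before it, explants held 210, 330, 178, 249 and 344 TPM of Cyp3a11, all below every liver, and the difference from livers was -1.05 (limma adjusted p = 0.0022). Irises held 20, 22.3 and 22.7 TPM, 4.10% of the liver level. The edgeR difference of explants from irises was 3.71 ± 0.30 (adjusted p = 0.00019).

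Cyp3a13 (ENSMUSG00000029727, chr5:137892932-137921619, minus strand), which lies apart from the other Cyp3a genes on chromosome 5, was lower in corrected explants than in livers and spheroids. It had 409, 294 and 433 TPM in livers, 320, 198 and 239 in hepatocyte preparations, and 427 and 405 in spheroids. Corrected explants held 174, 221, 134, 172 and 233 TPM, all below every liver and every spheroid sample and overlapping the hepatocyte preparations. Irises held 2.84 to 3.90 TPM.

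Cyp3a13 fell by 1.02 on the log2 scale between livers and corrected explants (SE 0.24, limma adjusted p = 0.020) and by 1.18 between spheroids and corrected explants (SE 0.27, adjusted p = 0.040). The first sat just past the fold limit and was lost without explant 4 (-0.91, adjusted p = 0.024), explant 5 (-0.999, 0.043), liver 1 (-0.96, 0.084) or liver 3 (-0.92, 0.11), and with scaling to the hepatocyte genes (-0.28, 0.43). The second was lost without explant 1 (-1.16, 0.067), explant 2 (-1.25, 0.055), explant 5 (-1.16, 0.087) or either spheroid sample (-1.14, 0.29, and -1.22, 0.28). Explants before correction exceeded irises by 4.24 ± 0.57 (edgeR adjusted p = 0.0017). Spheroids differed from hepatocyte preparations by 0.39 (adjusted p = 0.24).

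Cyp3a25 (ENSMUSG00000029630, chr5:145977194-146009618, minus strand), another CYP3A enzyme of adult liver, resembled Cyp3a13 in level. It had 484, 381 and 422 TPM in livers, 370, 372 and 364 in hepatocyte preparations and 261 and 551 in spheroids. The 2 spheroid samples lay on either side of all livers and hepatocyte preparations. Corrected explants held 189, 329, 174, 182 and 316 TPM, all below every liver and every hepatocyte preparation.

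The Cyp3a25 difference of corrected explants was -0.90 ± 0.27 from livers (limma adjusted p = 0.052) and -0.69 from hepatocyte preparations (adjusted p = 0.095), neither called. Without explant 2 (-1.03, adjusted p = 0.029) or explant 6 (-1.01, 0.029) the difference from livers was called. Those 2 explants held the lowest iris fractions and the highest corrected Cyp3a25 values. Explants before correction exceeded irises, at 2.02 to 5.85 TPM, by 4.35 ± 0.68 (edgeR adjusted p = 0.0039).

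Cyp3a59 (ENSMUSG00000061292, chr5:146079257-146113287, plus strand), the near copy of Cyp3a25, was low and uneven. It had 131, 39 and 40.8 TPM in livers, 33.2, 28.2 and 14.8 in hepatocyte preparations, and 70.6 and 136 in spheroids. Corrected explants held 48, 48.6, 14.9, 30.3 and 65.8 TPM, overlapping livers and hepatocyte preparations. Both spheroid samples lay above every hepatocyte preparation, and liver 1 lay more than 3 times above the other livers.

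Spheroids exceeded hepatocyte preparations by 1.72 ± 0.39 for Cyp3a59 (edgeR adjusted p = 0.016), a call lost without spheroid sample 2 (1.02, adjusted p = 0.12) and in a single fit of all 5 groups (1.70, 0.054). Against livers the difference was 0.48 (adjusted p = 0.51), and without liver 1 it was 1.23 and called (0.023). Between hepatocyte preparations and livers it was -1.30 ± 0.48 (adjusted p = 0.14), and without liver 1 it was -0.55. Explants before correction exceeded irises, at 0.300 to 0.641 TPM, by 4.99 ± 0.94 (adjusted p = 0.0097), and without iris 1 or iris 3 the adjusted p was 0.058. With limma-voom the calls of Cyp3a13, Cyp3a25 and Cyp3a59 against irises were lost, at adjusted p of 0.051, 0.076 and 0.080.

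Liver 1 and the spheroids, the samples with the most Cyp3a59, also stood out in sex-biased genes. A list of 10 female-biased liver genes summed to 990 TPM in liver 1 against 33.6 in the lowest liver, and to 637 and 815 in the spheroids. Cyp17a1, a steroid-converting P450 of this list, had 384, 19.5 and 21.6 TPM in the livers and 440 and 694 in the spheroids, most of the spheroid sums. Of the list 4 of 4 tested were called higher in spheroids than in hepatocyte preparations, where 8.13% of all genes were. Against livers 1 was higher and 1 lower of 5 in spheroids, where 8.24% and 11% of all genes were. In corrected explants against livers 0 were higher and 1 lower of 9, where 11.8% and 3.01% of all genes were. Hsd3b5, a male-biased hydroxysteroid dehydrogenase, had 2.70, 401 and 300 TPM in the livers, 3.44 and 5.20 in the spheroids and 0.440 to 6.10 in corrected explants. Of 8 male-biased genes 6 were called lower in spheroids than in hepatocyte preparations, where 9.11% of all genes were. Against livers 4 were lower in spheroids and 3 in corrected explants, where 11% and 3.01% of all genes were. Mup20 was not among them in these comparisons, at 1080 and 1222 TPM in spheroids and 685, 1017 and 966 in livers. Ddx3y, on the Y chromosome, was at 35.1 TPM or more in all 16 samples, and Xist, of the inactive X, at 0.373 TPM or less. What these genes share with Cyp3a59 was not tested.

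Cyp3a16 (ENSMUSG00000038656, chr5:145436309-145469723), Cyp3a44 (ENSMUSG00000054417, chr5:145773983-145805874) and Cyp3a41a (ENSMUSG00000075551, chr5:145694049-145720136), all on the minus strand, were near the limit of counting. Cyp3a16 had 35 counts in all, 11, 0 and 4 of them in the livers, and Cyp3a44 had 43 in all, 9, 3 and 2 in the livers. Cyp3a41a had 0 counts in all 16 samples, and Cyp3a41b 2. None of them had a count in any iris, and Cyp3a16 and Cyp3a44 stayed at 11 or fewer also in liver 1. Cyp3a16 and Cyp3a44 passed the filter for corrected explants against livers (-0.25 and -0.65, neither called), where a few counts are magnified by the correction, and no difference was detectable at this depth.

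**Figure D3:**
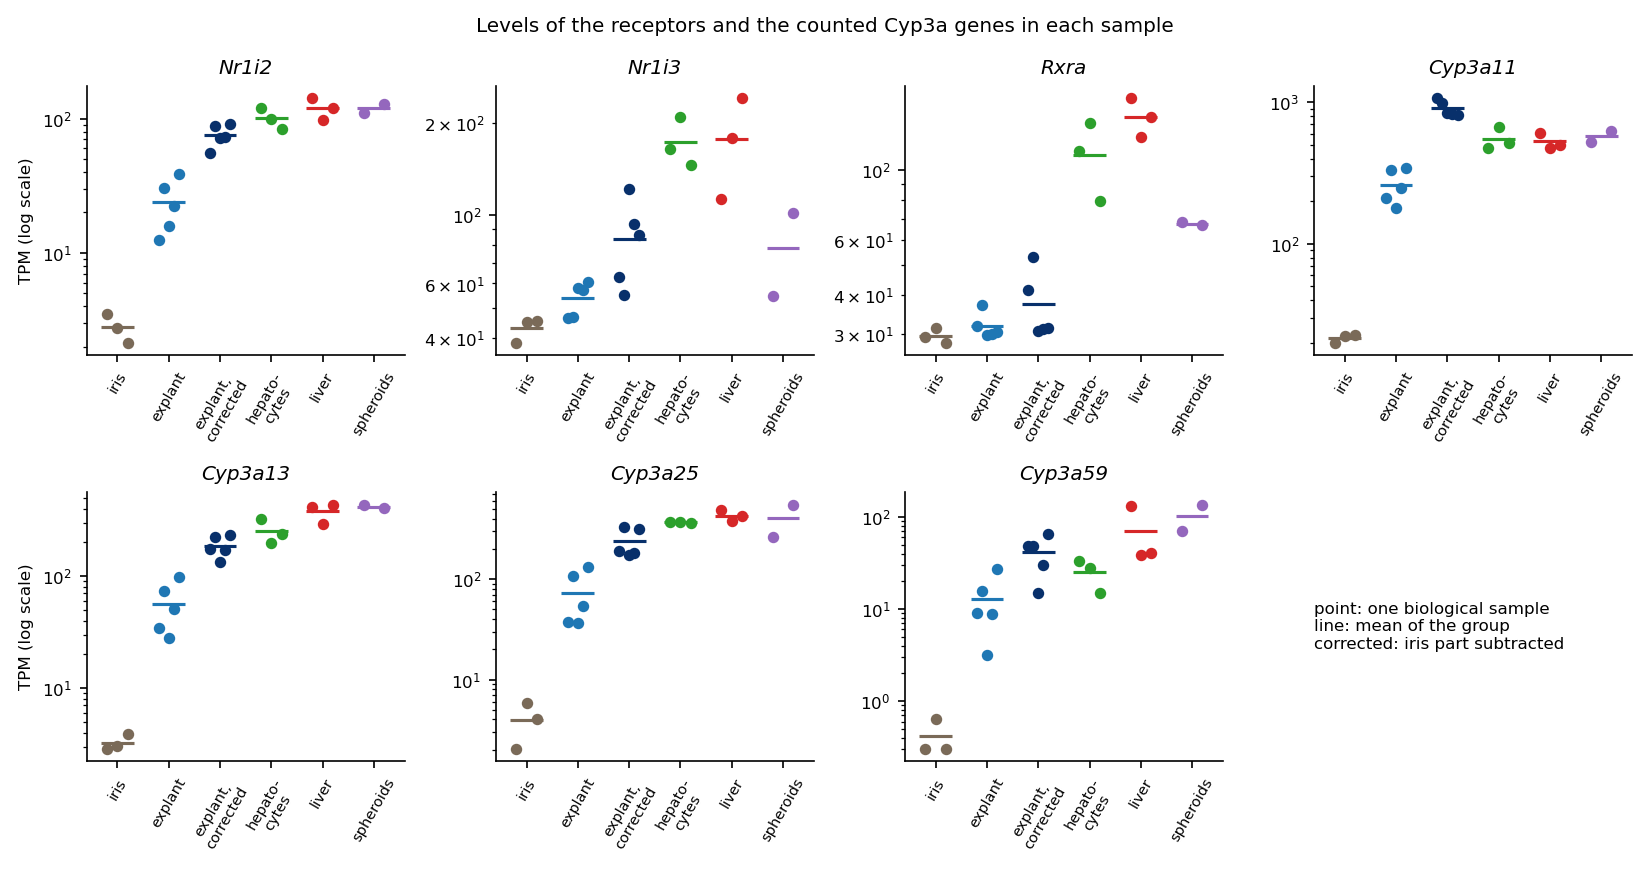
TPM of the 3 receptor genes, Cyp3a11, Cyp3a13, Cyp3a25 and Cyp3a59 on a log scale for each sample, by group, with explants before and after correction. Corrected explants lie above all other samples for Cyp3a11 and below every liver for Nr1i2, Rxra, Cyp3a13 and Cyp3a25.

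In order of mean TPM the livers held Cyp3a11, Cyp3a25, Cyp3a13, Nr1i3, Rxra, Nr1i2 and Cyp3a59. The ranges of Cyp3a11, Cyp3a25 (429 ± 52.1, SD, n = 3) and Cyp3a13 (379 ± 74.4) overlapped in turn, as did those of Nr1i3 (177 ± 63.8), Rxra (148 ± 20.8), Nr1i2 (120 ± 22.4) and Cyp3a59. In corrected explants the order was Cyp3a11, Cyp3a25 (238 ± 77.4), Cyp3a13 (187 ± 40.3), Nr1i3 (84.0 ± 26.7), Nr1i2 (76.0 ± 14.3), Cyp3a59 and Rxra (37.5 ± 9.74), where Cyp3a25 overlapped Cyp3a13, Nr1i3 overlapped Nr1i2, and Cyp3a59 overlapped Nr1i3, Nr1i2 and Rxra. In irises Nr1i3 (42.9 ± 3.85) and Rxra (29.6 ± 1.53) stood above Cyp3a11, and in spheroids Nr1i2 and Cyp3a59 stood above Nr1i3 and Rxra in mean.

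The sum of the 7 Cyp3a genes was 1172 to 1584 TPM in corrected explants and 1192 to 1643 TPM in livers, so its level overlapped while its make-up did not. Cyp3a11 took 72.2%, 62.2%, 72.2%, 68.3% and 56.6% of this sum in explants 1, 2, 4, 5 and 6, against 37.2%, 40.1% and 35.7% in livers. It took 39.6%, 52.4% and 45.3% in hepatocyte preparations and 40.8% and 36.3% in spheroids. Every explant thus exceeded every other liver-derived sample. The ratio of Cyp3a11 to Cyp3a13 was 3.47 to 6.32 in corrected explants, 1.15 to 1.63 in livers and 1.49 to 3.36 in hepatocyte preparations.

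This share needs no scaling between samples, and it was nearly the same before correction, at 57.1% to 72.4%. The irises, with a summed Cyp3a level of 25.2 to 31.8 TPM, also had a high Cyp3a11 share, at 79.5%, 70.1% and 73.3%. Explant 6, with the lowest iris fraction of 59%, had the lowest share, and explants 1 and 4, with 82% and 81%, the highest. Whether the source of the iris counts bears on the explant share was not tested.

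**Figure D4:**
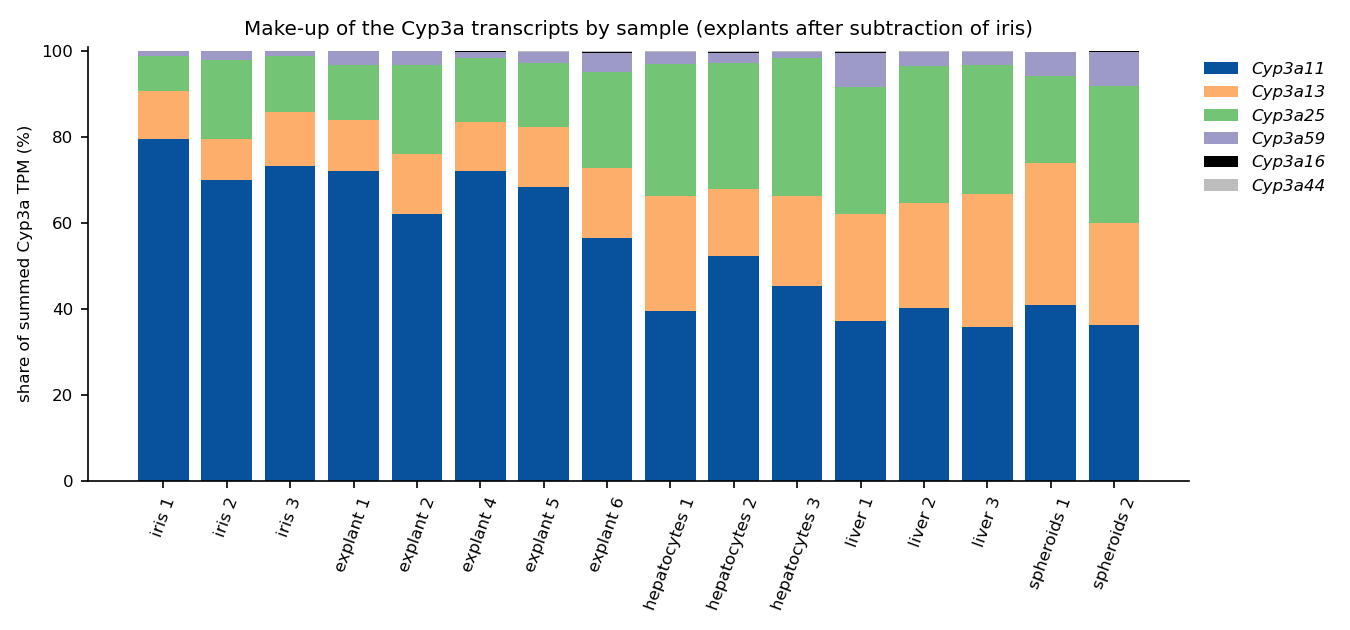
Stacked bars of the share of the summed Cyp3a TPM in percent held by each Cyp3a gene, for every sample, with explants after subtraction of iris. Cyp3a11 fills 56.6% to 72.2% of the bar in explants and 35.7% to 40.1% in livers.

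The Cyp3a11 difference was also set beside other liver genes of the same abundance, because duplicate removal limits how many reads a position can hold. A set of 775 liver genes (at least 20 TPM in livers and hepatocyte preparations, iris under 20% of liver, 500 coding bases or more) was binned by counts per base of coding transcript in a liver library, a view chosen after the data were seen. The median difference of corrected explants from livers was -0.83 in the lowest bin, up to 0.05, and -0.32 in the bin from 0.4 to 0.8. It was 0.17 above 0.8, in 28 genes, so the most abundant genes lay higher in corrected explants. Cyp3a11, at 0.559 counts per base, exceeded all 107 genes of the bin from 0.4 to 0.8. A formula was also applied that assumes read starts spread evenly over the coding transcript, with at most 2 per base in a library. It gave Cyp3a11 levels of 944 ± 111 corrected TPM in explants and 559 ± 91.9 in livers (SD, n = 5 and 3). Whether coverage was even was not tested, so these values do not show the level without duplicate removal. Cyp3a13, at 0.185, and Cyp3a25, at 0.217, stood in bins with medians of -0.80 and -0.61.

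**Figure D5:**
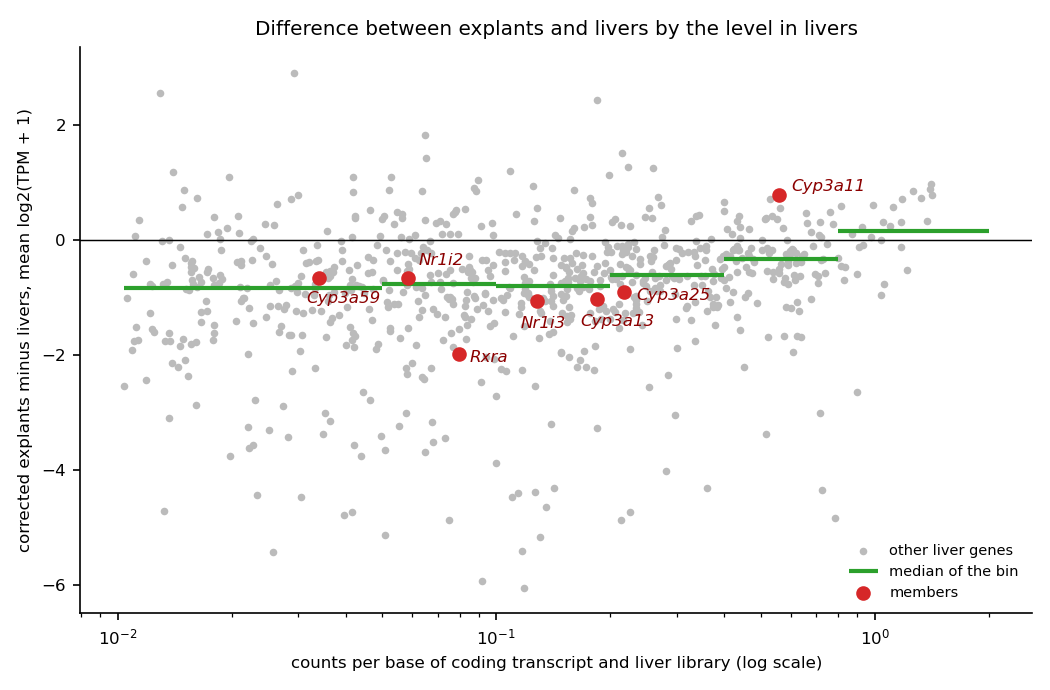
Difference of mean log2(TPM + 1) between corrected explants and livers on the y axis against counts per base of coding transcript and liver library on a log x axis, for 775 liver genes with bin medians and the members marked. Bin medians go from -0.83 at the left to 0.17 at the right, and Cyp3a11 lies at 0.78.

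The wider set of PXR and CAR targets, a list of 20 genes outside Cyp3a, was called more often lower than higher in spheroids. Against hepatocyte preparations 3 were called higher and 8 lower of 19 tested, where 8.13% and 9.11% of all genes were, with a list median of -0.40 beside 0.01 over all genes. Against livers 2 were higher and 7 lower of 20, where 8.24% and 11% of all genes were. In corrected explants against livers 2 were higher and 1 lower of 20, near the 11.8% and 3.01% of all genes, with a list median of -0.27 beside 0.61. In explants against irises 10 of 20 were higher, where 6.16% of all genes were, and none of the 20 was called lower.

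Cyp2b10, the classical target of CAR, was far higher in spheroids than in any other sample, while Nr1i3 was lower there. Its TPM was 1487 and 1798 in the spheroids against 30.8, 16.6 and 24.7 in hepatocyte preparations and 169, 17.3 and 15 in livers. It thus rose by 5.77 ± 0.32 from hepatocyte preparations (edgeR adjusted p = 6.85e-05). Corrected explants held 5.90, 62.2, 6.76, 5.12 and 8.52 TPM, a log2 difference of -7.16 from spheroids (limma adjusted p = 0.0041). Apart from explant 2 these are remainders of nearly equal numbers, as irises held 10 to 12.4 TPM and the other explants 9.33 to 10.2 before correction, so the size of that difference is uncertain.

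Of the 5 Cyp2c genes in the list, which encode further drug and fatty acid oxidising P450s, 4 were lower in spheroids than in hepatocyte preparations. Cyp2c29, named after its values were seen, was not called, at 813 and 970 TPM in spheroids and 729, 1148 and 959 in hepatocyte preparations. The log2 difference from hepatocyte preparations was -8.04 for Cyp2c54, -6.48 for Cyp2c50 and -6.31 for Cyp2c37 (edgeR, highest adjusted p of the 3 genes 0.00072). Cyp2c50 was at 303, 595 and 494 TPM in hepatocyte preparations, 7.56 and 5.52 in spheroids and 191 to 341 in corrected explants. In corrected explants against livers the called targets were Gsta1, a glutathione transferase, up by 2.81 (limma adjusted p = 0.0075), Cyp2c55, up by 2.56 (0.017), and Abcc3, an efflux transporter, at -1.16 (0.013).

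Of 16 partners and coregulators 3 were called, all lower, in corrected explants against livers, where 3.01% of all genes were called lower. These were the liver transcription factors Cebpa (-2.04, limma adjusted p = 0.0030) and Onecut1 (-2.47, 0.025) and the glucocorticoid receptor Nr3c1 (-1.36, 0.032). The Nr3c1 values are remainders too, since irises held 43.4 to 57.8 TPM and explants before correction 38.1 to 42.5. Cebpa was at 52.7, 38.5, 51.5, 29.9 and 65.0 TPM in corrected explants, 180, 222 and 176 in livers and 35.8 and 23.8 in spheroids. In spheroids against hepatocyte preparations 3 of 16 were called, all lower, Nr0b2, Onecut1 and Cebpa, where 9.11% of all genes were lower. The list median was -0.80 in corrected explants against livers.

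Of the 6 genes of P450 electron transfer and heme supply, 1 was higher and 2 lower in corrected explants against livers, where 11.8% and 3.01% of all genes were. Por, the reductase that feeds electrons to CYP3A enzymes, had 532, 396 and 511 TPM in livers, 351, 235 and 92.4 in hepatocyte preparations, and 300 and 304 in spheroids. Corrected explants held 40.8, 57.6, 87.9, 77 and 110 TPM, all below every liver (-2.73 ± 0.32, limma adjusted p = 0.0014). As with Rxra, these are remainders, since irises held 166 to 173 TPM and explants before correction 134 to 154. The other calls were Hmox1, which breaks down heme (1.46, adjusted p = 0.011), and Cyb5a, another electron donor (-1.19, 0.017), at 352 to 362 TPM in irises and 325 to 402 in explants before correction.

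The genes most like the members in pattern were named by Pearson's r of log2(TPM + 1) over the 13 samples other than iris, among 10224 genes. The samples fall into 4 groups and the explants share a correction, and r within groups or without the correction was not computed. For Nr1i2 they were Psmd9 (0.914), F12 (0.905), Plin5 (0.905), Fkbp5 (0.901) and Slc5a6 (0.901), and Cyp3a13 had 0.865 and Cyp3a25 0.847. For Nr1i3 they were its overlapping neighbour Tomm40l (0.957), then Sord (0.956), Abcg8 (0.940), Ephx2 (0.940) and Ghr (0.934). For Cyp3a11 they were Lyn (0.956), Hltf (0.954), Gpha2 (0.943), Rspo2 (0.943) and Pla2g2e (0.939), while its r was -0.694 to Nr1i2 and -0.707 to Cyp3a13.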

How the data were processed

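RNA of 16 samples was sequenced by Smart-seq3 in 48 libraries. Per the submitters' processing notes and the file headers, the authors aligned reads to mm10 with TopHat2, removed duplicates and made the deposited counts with featureCounts 1.4.6-p5, without strand, and from them the deposited TPM, which were matched by recalculation. The corrected explant values deposited by the authors, treated as a score, are TPM less an iris contribution. Counts of the 3 technical libraries were summed. Total counts of 2718518 to 6789648 limit precision for low genes.

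The quasi-likelihood test of edgeR 4.0.16 in R 4.3.3 was applied to counts after filterByExpr and TMM. Corrected TPM were tested with limma 3.58.1 (trend) on log2(TPM + 1), for genes with a mean of at least 1 TPM. Fits were tested on simulated data. The simulated corrected values held no iris subtraction, so they do not test that step. Python 3.11.15 and pandas 2.3.3 were used for the rest. The members and lists were chosen with earlier results of these data known. Named list genes are up to 4 with the largest absolute difference among those called in a comparison, all sex chromosome and other Cyp3a genes, and the 5 most correlated genes. Alternatives were DESeq2 1.42.0, limma-voom, other filters, scalings and iris fractions, a replicate block and leaving out samples. Gene sequences came from GENCODE M21 and RefSeq.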

Additional observations from a re-analysis of the deposited data

Results flagged for a closer look

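Of 24 sets of 5 explant values tested for a sample far from the others, 1 was singled out, which is about the 1 in 20 that chance gives. In explants before correction Rxra, the retinoid X receptor gene, was at 37.1 TPM in explant 2 against 29.8 to 31.8 in the other 4, and the gap to the nearest of them divided by the whole range was above the Dixon value of 0.71 for 5 samples.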

How the results depend on the processing

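The counts below are members called. For explants against irises 5 were called, and 2 with limma-voom or with at least 10 counts in every sample, where members with low iris counts were not tested. For hepatocyte preparations against livers 0 were called, and 1 with DESeq2 or without the filter on counts. Leaving out 1 sample at a time gave 1 to 3 members for spheroids against hepatocyte preparations (3 in all samples) and 1 to 3 for spheroids against livers (2 in all samples).

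For corrected explants, 2 members were called against livers, 2 against hepatocyte preparations and 1 against spheroids. TPM before correction gave 7, 7 and 6, the corrected values as deposited 0, 0 and 0, and iris fractions by non-negative least squares 1, 1 and 0. Scaling by the hepatocyte genes gave 1 against hepatocyte preparations, and no filter on TPM gave 0 against spheroids. Leaving out samples gave 1 to 3, 0 to 2 and 0 to 1. Cyp3a11 reversed with TPM before correction, to -1.05, -1.10 and -1.17. The median of the hepatocyte genes moved from -0.73 to -2.52 before correction and to 0.0117 when scaled by those genes, which follows from that scaling. For the other alternatives above the cause was not tested.

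A fit with the replicate number as a block kept only samples whose number occurs in both groups, 2 pairs in each comparison of corrected explants. It called 0 members in each of these 3 comparisons. Over all genes the calls moved from 3104 to 186 against livers, from 3933 to 2057 against hepatocyte preparations and from 1263 to 539 against spheroids. The part of the block and that of the samples left out cannot be told apart in these counts. Deviations of same-numbered samples correlated at -0.0429 to 0.107 for hepatocyte preparations and livers, over 3 pairs. Over 2 pairs each they correlated at -0.107 to 0.0485 for explants and irises, 0.107 to 0.139 for spheroids and hepatocyte preparations and 0.0583 to 0.193 for spheroids and livers. The labels give the numbers no shared origin, so the samples were not treated as pairs.

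The fractions rest on the iris as deposited, and counts of 11 or fewer limit Cyp3a16, Cyp3a41a and Cyp3a44. The Cyp3a11 share was the same within its spread under all 12 alternatives run.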
